A study of Mus musculus with 6 samples.

Results

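The transcripts described here are those of the mouse mitochondrial genome, taken as every gene of the deposited count table whose symbol starts with mt-. They were 15 of 23733 genes and comprised 13 messenger RNAs and 2 ribosomal RNAs. The annotation places 37 genes on the mitochondrial chromosome, and its 22 transfer RNAs, which are 59 to 75 bases long, had no row in the count table. Femurs of 5-week-old mice were sequenced, 1 library each, from 3 mutant and 3 control animals. Mutant mice were heterozygous for a mutant Ifitm5 cDNA knocked into Rosa26 (Rosa26 mIfitm5) and carried Acan-Cre ERT2, a Cre recombinase that is expressed from the aggrecan promoter of chondrocytes and acts only after tamoxifen. They received tamoxifen at 10 mg/kg per dose. The methods name P10 for the sequenced mice and P10 until P15 for the line, and the description of the series gives P10 to P15. Controls of this line were littermates with the Cre alone, the knocked-in allele alone or neither. The genotype of each control, its tamoxifen treatment and the sex of the animals are not given in the sources used here. RNA came from whole pulverized bone, so it includes marrow and any muscle left on the bone, whereas the Cre acts in cells with an active aggrecan promoter.

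The mitochondrial genome is a small circle of DNA present in many copies per cell. Its messenger RNAs encode membrane subunits of the respiratory chain and of ATP synthase, its ribosomal RNAs build the mitochondrial ribosome, and the remaining proteins of these machines come from nuclear genes. Both strands are transcribed almost end to end into long precursors, which are cut mainly at the transfer RNAs between the genes, so that the levels of single transcripts also depend on their stability. Cells with a high demand for ATP, such as muscle fibres, are rich in mitochondria.

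Several members share sequence with the nuclear genome or with each other, and 3 sets of sequences from GRCm39, read 5′ to 3′, show where counts cannot be told apart. On chromosome 1, positions 24650616 to 24655269 of the minus strand match positions 6390 to 11042 of the mitochondrial genome, which is 16299 bases long, over 4654 aligned bases with an identity of 99.936%. This stretch is a nuclear insertion of mitochondrial DNA and holds 7 annotated pseudogenes. The first set gives the start of mt-Co3, which encodes a core subunit of cytochrome c oxidase, and of its pseudogene Gm28437, with the start codon in capitals, and the members of this pair have the same bases.
mt-Co3 start (chrM:8607-8666, plus strand): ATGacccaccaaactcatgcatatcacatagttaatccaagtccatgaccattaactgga
Gm28437 start (chr1:24652993-24653052, minus strand): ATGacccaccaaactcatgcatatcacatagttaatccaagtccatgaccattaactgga
The whole 4654-base match held 2 substitutions, counted along the mitochondrial genome, and 1 extra A in the nuclear copy between positions 9820 and 9821. The second set shows both substitutions, A6393T inside mt-Co1 and T9461C in the first codon of mt-Nd3, as capitals.
mt-Co1 (chrM:6390-6429, plus strand): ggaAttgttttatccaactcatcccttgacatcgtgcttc
Gm29216 (chr1:24655230-24655269, minus strand): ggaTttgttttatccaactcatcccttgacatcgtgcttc
mt-Nd3 (chrM:9459-9498, plus strand): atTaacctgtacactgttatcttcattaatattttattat
Gm28438 (chr1:24652161-24652200, minus strand): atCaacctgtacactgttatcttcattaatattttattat
The third set shows, in capitals, the bases that neighbouring members share.
mt-Atp8 and mt-Atp6 (chrM:7917-7979, plus strand): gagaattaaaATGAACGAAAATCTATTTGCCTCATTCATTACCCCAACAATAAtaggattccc
mt-Nd4l and mt-Nd4 (chrM:10157-10183, plus strand): acctactacaATGCTAAaaattattct
mt-Nd5 and mt-Nd6 (chrM:13542-13575, plus strand): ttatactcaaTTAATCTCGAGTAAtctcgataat
The first overlap is of 43 bases and the next of 7 bases, both between genes of the same strand. The last is of 14 bases between mt-Nd5 on the plus strand and mt-Nd6 on the minus strand, where reads can be assigned only with strand information, and use of strand in counting is not given in the sources used here.

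Libraries held 11473467 to 17058572 counts, and 18126 genes, with all 15 members among them, had enough counts to be tested by edgeR's quasi-likelihood test. In bulk bone, fewer cells of a type and less RNA per cell cannot be told apart. Markers of bone and cartilage were present in every library. The 11 cartilage markers summed to 0.577%, 0.294% and 0.806% of counts in mutant mice 1, 2 and 3, against 0.301%, 0.278% and 0.281% in control mice 1, 2 and 3. The 16 erythroid markers with a row summed to 1.26%, 0.385% and 0.191% in mutant mice, against 0.195%, 0.123% and 0.0663% in control mice, and the 11 neutrophil markers to 0.213%, 0.157% and 0.116% in mutant mice, against 0.0549%, 0.0578% and 0.0289% in control mice. With mice blocked by number, 16 of 16 erythroid, 10 of 11 neutrophil and 1 of 11 cartilage markers were higher in mutant mice by edgeR, and without the block 0 markers of these 3 lists passed its threshold. DESeq2, run without the block, called 1 of 16 erythroid, 10 of 11 neutrophil and 7 of 11 cartilage markers, and 0.651% of all genes. The groups did not overlap, with mutant mice higher, for 0, 10 and 7 of these markers, as for 6.54% of all genes. The 12 osteoblast markers summed to 6.80%, 9.81% and 11.9% of counts in mutant mice 1, 2 and 3, against 12.1%, 11.4% and 16.9% in control mice 1, 2 and 3. All 12 had log2 fold changes below 0. With the block 2 of 12 were called lower in mutant mice, and without it edgeR and DESeq2 called 0. The 18 skeletal muscle markers summed to 1.13%, 1.86% and 0.318% in mutant mice, against 0.659%, 1.24% and 0.156% in control mice, and none of the 18 was at 0 in any library. Muscle genes were thus lowest in mice 3 of both groups. In the fit without pairing 0 of these 18 muscle genes passed edgeR's threshold of an adjusted p of 0.05, and with the replicate number as a block 10 of 18 were higher in mutant mice, as were 2.7% of all genes, while 0.623% of all genes were lower.

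The shares of RNA taken by mitochondrial transcripts overlapped between the genotypes, and mouse 3 of each group had less than the other 4 mice. The 15 members together made up 6.72%, 6.52% and 4.12% of counts in mutant mice 1, 2 and 3, against 6.25%, 5.60% and 4.12% in control mice 1, 2 and 3. The mean was 5.79% ± 1.45 in mutant mice and 5.33% ± 1.09 in control mice (SD, n = 3 each). The difference of 0.464 percentage points was smaller than the SD of either group and the groups overlapped. Between mice of the same number, the mutant mouse exceeded the control mouse by 0.470, 0.920 and 0.0021 points in pairs 1, 2 and 3. Without mutant mouse 1 the difference of the means was -0.0037 points and without control mouse 3 it was -0.14 points, and without the 10 most abundant genes in the denominator it was -0.27 points, so that its direction was not stable. Those 10 genes were Col1a1, Rn7s1, Rn7s2, Col1a2, Rn7sk, mt-Co1, Malat1, Sparc, Ttn and mt-Nd4. Together they took 22.6%, 28.0% and 28.7% of counts in mutant mice, against 35.3%, 34.1% and 33.3% in control mice. The muscle shares above were lowest in the same mice, and the part of muscle or of the other cell types in the mitochondrial share was not tested. Almost all of the signal was messenger RNA, which made up at least 99.7% of the members' counts in every library.

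**Figure D1:**
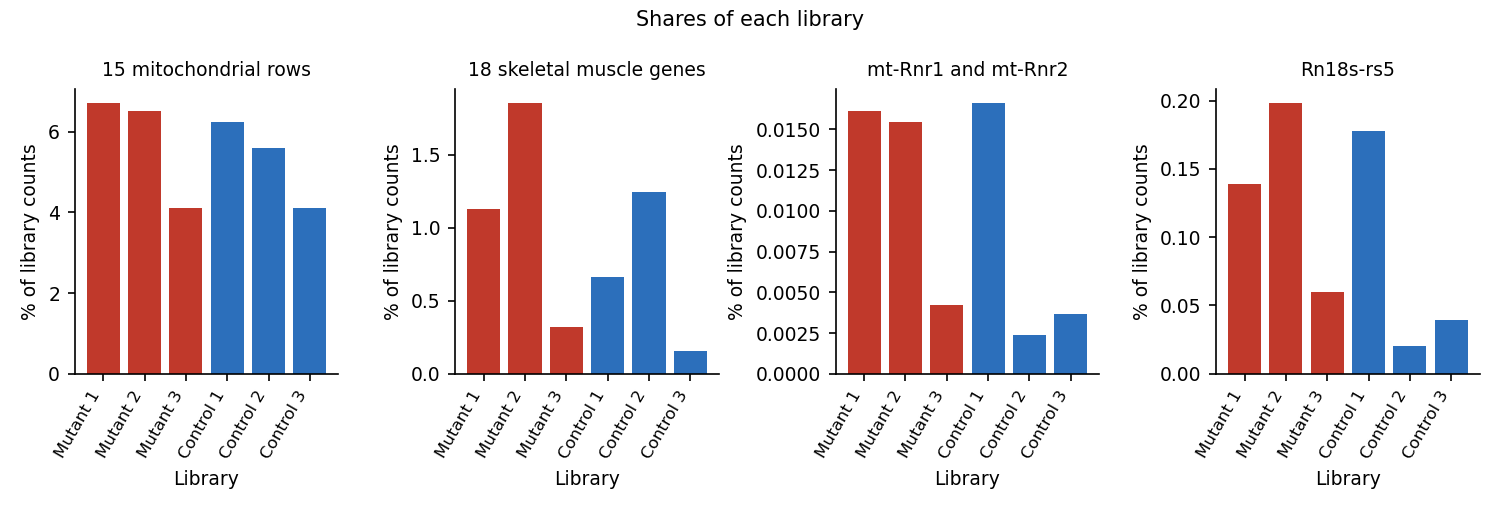
Shares of library counts, in percent, for the 15 mitochondrial genes, 18 skeletal muscle markers, the 2 mitochondrial ribosomal RNAs and the cytosolic ribosomal RNA gene Rn18s-rs5, with 1 bar per library (mutant mice red, control mice blue). The mitochondrial share was lowest in mutant mouse 3 and control mouse 3, both at 4.12%, and both ribosomal panels were lowest in control mouse 2.

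Of the 13 messenger RNAs, 7 encode subunits of complex I, the NADH dehydrogenase that passes electrons to ubiquinone and pumps protons. All of their products lie in its membrane arm. Values in the following are counts per 1000000 counts of the library (CPM), scaled by TMM factors, and spans on the mitochondrial chromosome are those of GRCm39. mt-Nd1, at positions 2751 to 3707, had 6393, 6358 and 3762 CPM in mutant mice 1, 2 and 3, against 6628, 5948 and 4332 CPM in control mice 1, 2 and 3. mt-Nd2, at 3914 to 4951, had 4056, 4347 and 2539 CPM in mutant mice, against 4362, 4327 and 2789 CPM in control mice. For both, mouse 3 of each group lay below the other 4 mice and the groups overlapped. mt-Nd4, at 10167 to 11544, had 6279, 6966 and 4241 CPM in mutant mice, against 6950.4, 6423 and 4798 CPM in control mice. mt-Nd5, at 11742 to 13565, had 5787, 6323 and 4044 CPM in mutant mice, against 6764, 5913 and 4511 CPM in control mice. The order of the mice was again set by the low values of mice 3. The short mt-Nd3, at 9459 to 9806, had 444, 502 and 274 CPM in mutant mice, against 481, 512 and 267 CPM in control mice. mt-Nd4l, at 9877 to 10173, had 159.6, 159 and 113 CPM in mutant mice, against 187, 212 and 118 CPM in control mice. Within each replicate number mt-Nd4l was lower in the mutant mouse, and the groups still overlapped, since control mouse 3 lay below mutant mice 1 and 2. mt-Nd6, at 13552 to 14070 and the only messenger RNA on the minus strand, had 479, 554 and 349 CPM in mutant mice, against 632, 573 and 356 CPM in control mice. It too was lower in the mutant mouse of each number. Summed, complex I transcripts reached 21376 ± 5305 CPM in mutant mice and 22361 ± 4616 CPM in control mice (SD, n = 3 each), a difference well inside the spread.

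Complex III, which passes electrons from ubiquinol to cytochrome c, has 1 mitochondrially encoded subunit, cytochrome b. Its gene mt-Cytb, at 14145 to 15288, had 5515, 6411 and 3796 CPM in mutant mice, against 6224, 5835 and 4387 CPM in control mice. Mutant mouse 2 was the highest of all 6 mice and mutant mouse 3 the lowest, so the mutant mice enclosed the control mice.

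Complex IV, cytochrome c oxidase, reduces oxygen to water, and its catalytic core is encoded by mt-Co1, mt-Co2 and mt-Co3. The most abundant member was mt-Co1, which encodes the subunit with the oxygen-reducing site. At 5328 to 6872, it had 22043, 22284 and 13538 CPM in mutant mice, against 23109, 20985 and 15069.7 CPM in control mice. mt-Co2, at 7013 to 7696, encodes the subunit that receives electrons from cytochrome c and had 3429, 3681 and 2289 CPM in mutant mice, against 3709, 3387 and 2339 CPM in control mice. mt-Co3, at 8607 to 9390, had 4275, 4584 and 2788 CPM in mutant mice, against 4381, 4132 and 3005 CPM in control mice. In each of the 3 genes mutant mouse 3 had the lowest level and the groups overlapped. Summed, complex IV transcripts reached 26304 ± 6671 CPM in mutant mice and 26705 ± 5613 CPM in control mice (SD, n = 3 each).

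Complex V, ATP synthase, makes ATP from the proton gradient, and mt-Atp6 encodes the subunit that carries protons past its rotor. mt-Atp6, at 7927 to 8607, had 1919, 1944 and 1154 CPM in mutant mice, against 2077, 1815 and 1207 CPM in control mice. mt-Atp8, which encodes a small membrane subunit of the same enzyme and lies at 7766 to 7969, had 149, 148 and 96.4 CPM in mutant mice, against 166, 168 and 98.8 CPM in control mice. The mutant mouse was lower for mt-Atp8 in each of the 3 replicate numbers.

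**Figure D2:**
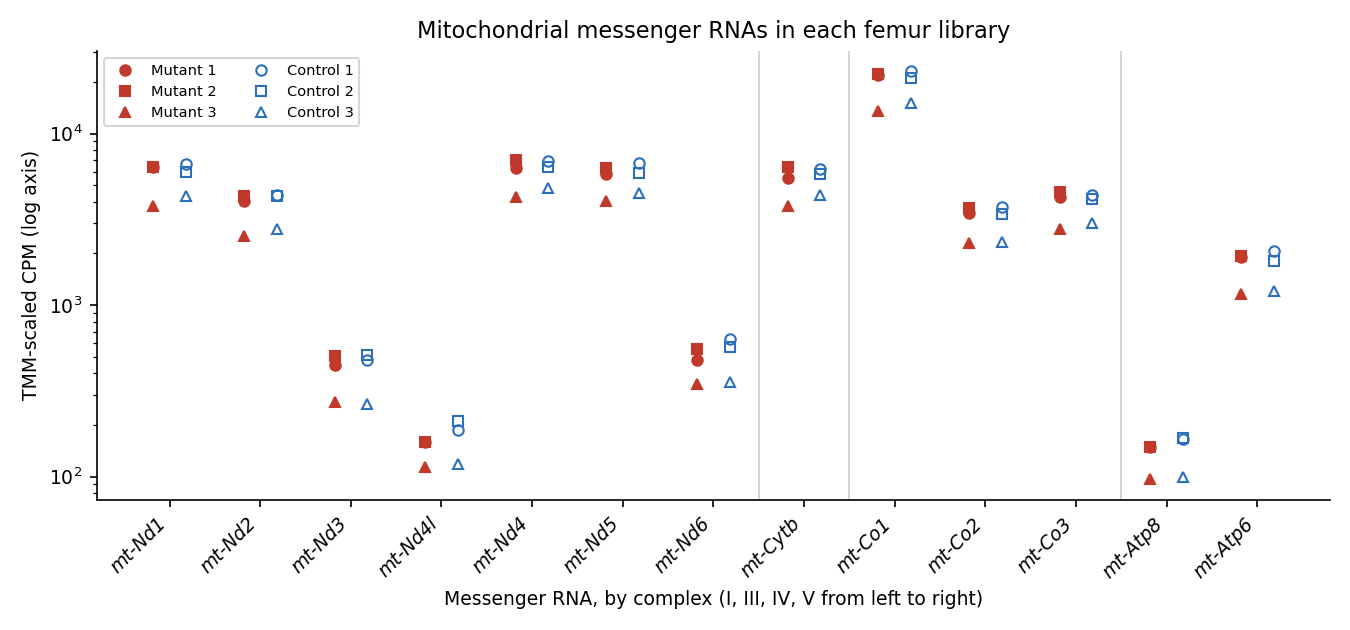
TMM-scaled CPM, on a log axis, of the 13 mitochondrial messenger RNAs in each library, grouped by complex with grey lines between complexes (mutant mice filled and left, control mice open and right, mouse 1 a circle, mouse 2 a square, mouse 3 a triangle). For all 13 genes both triangles lie below the other 4 points, and for mt-Co1 the 6 values run between 13538 CPM in mutant mouse 3 and 23109 CPM in control mouse 1.

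The 13 messenger RNAs moved together across the 6 mice. For 13 of 13, mutant mouse 3 and control mouse 3 were the lowest of the 6 libraries. The lowest of all was mutant mouse 3 for 12 genes and control mouse 3 for mt-Nd3. The highest was control mouse 1 for 7 genes, mutant mouse 2 for 3 and control mouse 2 for 3. The highest library exceeded the lowest by 1.62-fold for mt-Co2 and up to 1.92-fold for mt-Nd3. In TMM-scaled CPM, the mutant mouse was lower than the control mouse of its number for 13 of 13 genes in pair 1. In pair 2 it was lower for 4 genes and higher for 9, and in pair 3 lower for 12 and higher for 1. The share of all genes lower in a single pair was not computed. mt-Nd4l, mt-Nd6 and mt-Atp8 were lower in the mutant mouse of all 3 pairs, as were 19.1% of all genes tested. In unscaled shares the direction was the other way for the 15 members together. There the mutant mouse was higher by 0.470, 0.920 and 0.0021 points in pairs 1, 2 and 3.

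No member passed the test between mutant and control mice. In the edgeR fit 0 of 15 members passed an adjusted p of 0.05, as did 0 of all 18126 genes tested, a background of 0%. At an unadjusted p of 0.05 the count was 0 of 15 members, while 8.56% of all genes reached it. The groups did not overlap for 0 of 15 members, compared with 13.2% of all genes. With the replicate number as a block, 602 genes or 3.32% of all were called and still 0 of 15 members, and DESeq2 called 0.651% of all genes and 0 of 15 members. The log2 fold changes of the messenger RNAs had a median of -0.06, with 12 below 0 and 1 above, beside a median of 0.0019 over all genes. They ranged between -0.26 for mt-Nd4l and 0.02 for mt-Co3. This direction depended on the scaling and on single mice. With library size alone, 11 of 13 were above 0 with a median of 0.11, while the median of all genes moved to 0.16, so the messenger RNAs lay slightly below all genes under both scalings. Without mutant mouse 3, 11 of 13 were above 0 with a median of 0.13, without control mouse 1, 10 of 13 were above 0 with a median of 0.040, and without control mouse 2, 7 of 13 were above 0 with a median of 0.013. Without mutant mouse 1, mutant mouse 2 or control mouse 3, 0 of 13 were above 0 and the medians were -0.14, -0.22 and -0.21.

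The 95% interval of the fold change included 0 for each member. mt-Co1 had a log2 fold change of -0.03 (SE 0.30, adjusted p = 0.985 by edgeR, 95% interval -0.71 to 0.64), which spans levels of 0.612 to 1.56 times those of control mice. The fold change with the smallest adjusted p was that of mt-Nd4l, at -0.26 (SE 0.23, adjusted p = 0.774 by edgeR, 95% interval -0.78 to 0.26). For mt-Nd6 it was -0.17 (SE 0.25, adjusted p = 0.863 by edgeR, 95% interval -0.74 to 0.39). Intervals of this width do not show that mutant and control levels were alike.

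**Figure D3:**
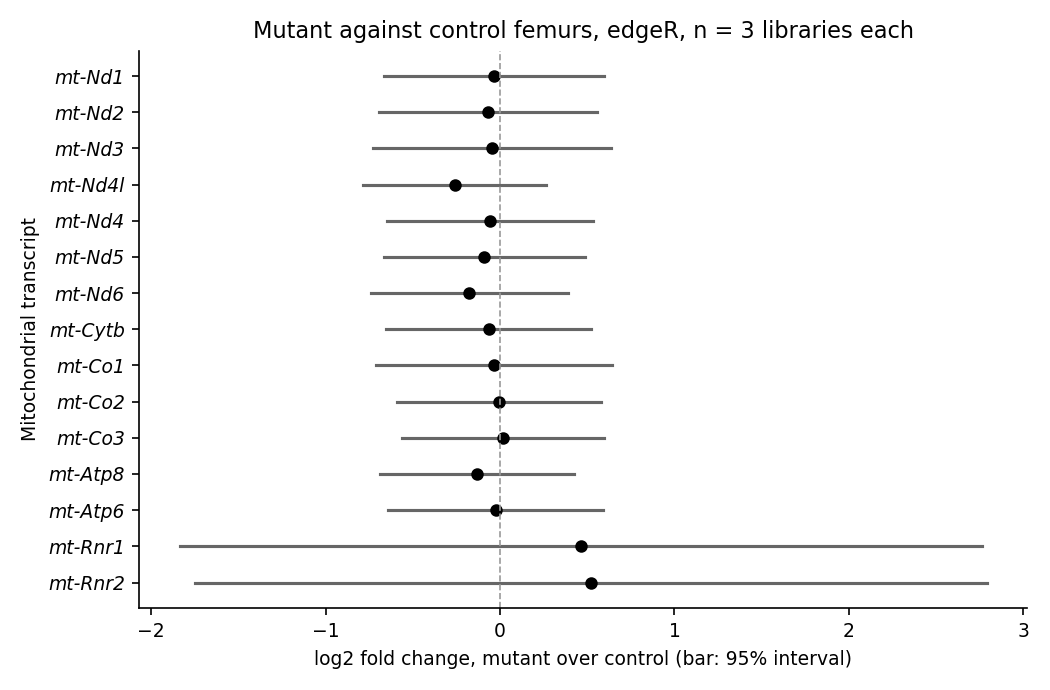
Log2 fold change of mutant over control mice for each of the 15 members in the edgeR fit (points) with 95% intervals (bars), n = 3 libraries each. All 15 intervals cross 0, and those of mt-Rnr1 and mt-Rnr2 are the widest, reaching up to 2.76 and 2.79 on the log2 scale.

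Levels were compared between genes per length, as CPM per kilobase. mt-Co1 was the most abundant, at 12485 ± 3224 in mutant mice and 12764.5 ± 2696 in control mice (SD, n = 3 each). It was followed by mt-Nd1, at 5752 ± 1577 in mutant mice and 5889 ± 1232 in control mice. Next came mt-Co3, mt-Cytb, mt-Co2 and mt-Nd4, whose means over all 6 mice were 4924, 4686, 4589 and 4313 CPM per kilobase and of which neighbours in this order lay within 1 SD of each other. mt-Nd2, mt-Nd5 and mt-Atp6 had 3600.0, 3047 and 2476, and mt-Nd3, mt-Nd6, mt-Atp8 and mt-Nd4l were the lowest messenger RNAs with 1188, 945, 675 and 532. mt-Atp8 and mt-Atp6 lie on 1 joint transcript, as do mt-Nd4l and mt-Nd4, and in each pair the short upstream gene had fewer counts per kilobase. With the counts of annotated nuclear copies added, mt-Nd4l had 911 and mt-Nd4 4476 CPM per kilobase. mt-Atp8 lies wholly in the chromosome 1 insertion and has no annotated copy there whose counts could be added. The part of nuclear copies and of gene length in these differences was not tested. The rule for assigning reads in the shared bases is not given in the sources used here.

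**Figure D4:**
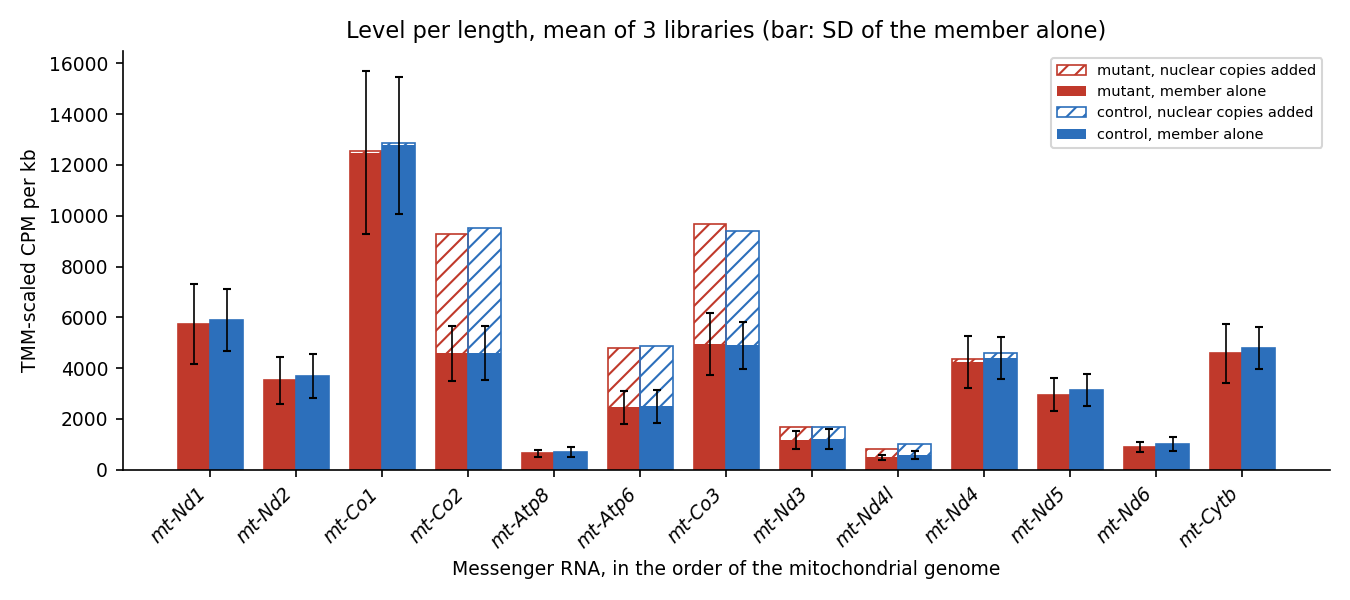
TMM-scaled CPM per kilobase of the 13 messenger RNAs in the order of the mitochondrial genome, as means of 3 mutant (red, left) and 3 control (blue, right) libraries with the SD of the member alone, and with the counts of its annotated nuclear copies added as hatched bars. With copies added, mt-Co2 and mt-Co3 stand above mt-Nd1, at 9277 and 9687 in mutant mice and 9530.4 and 9404 in control mice.

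Counts were divided between members and their nuclear copies. Of 2408 pseudogenes in the table, 11 matched the mitochondrial genome with at least 95% identity, 7 of them in the chromosome 1 insertion described above, 3 on chromosome 2 and 1 on chromosome 13. Together these 11 took 1.08%, 1.10% and 0.706% of library counts in mutant mice 1, 2 and 3, against 1.04%, 0.909% and 0.650% in control mice 1, 2 and 3. They were lowest in mice 3, as their mitochondrial counterparts were. Nearly all of these counts were on chromosome 1, where the pseudogenes held 122299, 150670 and 101733 counts in mutant mice, against 130074, 111095 and 109563 counts in control mice. Those on chromosome 2, which are 95.906% to 97.605% identical to mt-Nd2, mt-Co1 and mt-Co2, held only 1210 to 2184 counts in each library.

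The copies of members that lie wholly in the insertion took the largest shares. mt-Co2, whose 684 bases lie wholly in the insertion, shared its counts with Gm28661, which took 49.98%, 50.9% and 49.97% of their sum in mutant mice, against 51.9%, 49.9% and 52.7% in control mice. mt-Co3 shared them with Gm28437, which took 48.6%, 49.0% and 49.1% in mutant mice, against 49.8%, 47.5% and 45.6% in control mice. Atp6-ps, the copy of mt-Atp6, took 46.4%, 49.0% and 52.4% in mutant mice, against 46.1%, 49.5% and 51.5% in control mice. In these 3 genes the copy and the member thus received nearly equal counts. The share was lower for Gm10222 of 294 bases and mt-Nd4l, at 40.6% ± 4.39 in mutant mice and 41.1% ± 3.397 in control mice, and for Gm28438 of 345 bases and mt-Nd3, at 31.0% ± 4.94 in mutant mice and 29.4% ± 3.54 in control mice (SD, n = 3 each). The copies of members that reach beyond the insertion took the smallest shares. Gm28439 had 3.26% ± 0.398 in mutant mice and 3.85% ± 1.10 in control mice of its sum with mt-Nd4, of which 63.6% lies in the insertion, and Gm29216 had 0.141% ± 0.0217 in mutant mice and 0.156% ± 0.0324 in control mice of its sum with mt-Co1, of which 31.3% does. The groups overlapped for each of the 7 shares.

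**Figure D5:**
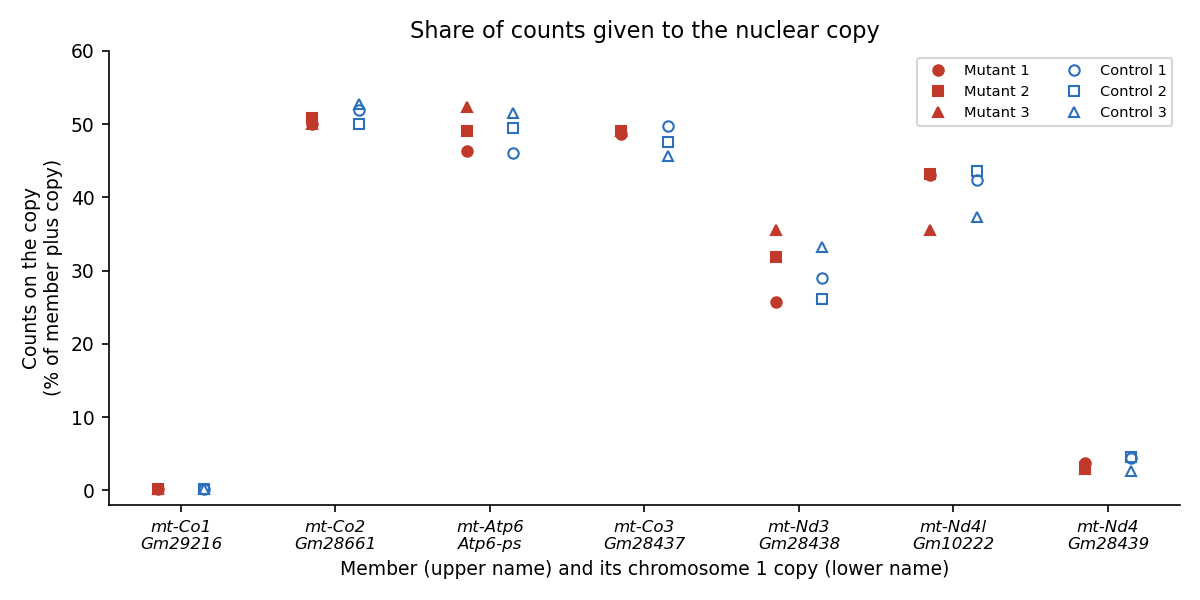
Counts on the chromosome 1 pseudogene as a percentage of the counts on member plus pseudogene, for 7 members in each library (mutant mice filled and left, control mice open and right, mouse 1 a circle, mouse 2 a square, mouse 3 a triangle). The copies of mt-Co2, mt-Atp6 and mt-Co3 took between 45.6% and 52.7% of the sums, and those of mt-Nd4 and mt-Co1 at most 4.52%.

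Counts that are not whole numbers appeared in the members with such copies. mt-Co2, mt-Co3, mt-Nd3 and mt-Nd4l had fractional counts in 6 of 6 libraries and mt-Atp6 and mt-Nd4 in 5 of 6, while mt-Nd1, mt-Nd2, mt-Nd5, mt-Nd6, mt-Cytb, mt-Atp8 and the ribosomal RNAs had whole counts as written in all 6. mt-Atp8 lies in the insertion without an annotated pseudogene of its own. mt-Co1 could not be judged, since the table holds 6 significant digits and its counts were 208625 or more. For mt-Nd2, with counts of 39129 or more, fractions as small as those of its copy Gm13339, such as 39.017 in mutant mouse 1, could not show either. Whether any RNA came from the nuclear copies themselves cannot be told apart from mitochondrial reads assigned to them. mt-Nd1, mt-Nd5, mt-Nd6, mt-Cytb and both ribosomal RNAs lie outside the insertion, and their values do not rest on this split. mt-Nd2 and mt-Nd5 have copies elsewhere, Gm13339 on chromosome 2 with 22.0 to 57.0 counts and Gm4076 on chromosome 13 with 45 to 105 counts in each library. Adding the copies to the members put mt-Co3 and mt-Co2 next after mt-Co1 in level per length, with 9546 and 9403 CPM per kilobase over all 6 mice, raised mt-Atp6 to 4832, and left 0 of 15 members called by edgeR.

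Within the messenger RNA pool, whose shares do not depend on scaling to nuclear genes, mt-Co3 was the 1 of 13 transcripts for which the groups did not overlap. This count is no more than the background, as the CPM of 13.2% of all genes did not overlap between the groups either. mt-Co3 made up 7.02%, 7.13% and 7.15% of the pool in mutant mice, against 6.67%, 6.86% and 6.94% in control mice. The difference of 0.276 points had an exact permutation p of 0.1 (two-sided), the smallest that 3 mice against 3 can give, over 13 transcripts compared. With the nuclear copies added, an alternative chosen after seeing the data, the share was 11.76%, 11.97% and 11.99% in mutant mice, against 11.38%, 11.25% and 11.02% in control mice, again without overlap (exact permutation p = 0.1, two-sided). The largest component was mt-Co1, with 35.2% ± 0.852 in mutant mice and 35.0% ± 0.207 in control mice (SD, n = 3 each). The shares of mt-Nd1, mt-Nd4, mt-Nd5 and mt-Cytb were 10.01%, 10.7%, 9.90% and 9.59% in mutant mice, against 9.99%, 10.8%, 10.2% and 9.77% in control mice. These shares varied far less between mice than the total of the pool, which was 64262 CPM in mutant mouse 2 and 38983 CPM in mutant mouse 3, against 65669 CPM in control mouse 1 and 43277 CPM in control mouse 3.

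mt-Nd6 reads the transcription of the opposite strand from that of the other 12 messenger RNAs. Its counts were 0.793%, 0.870% and 0.903% of the sum of those 12 in mutant mice, against 0.971%, 0.960% and 0.829% in control mice. Mutant mouse 3 was the highest of its group and control mouse 3 the lowest of its own, and the groups overlapped. The log2 ratio differed by -0.10 between mutant and control mice (exact permutation p = 0.3, two-sided). Without strand information, mt-Nd6 reads cannot be told apart from reads of the opposite strand over the same positions.

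The 2 mitochondrial ribosomal RNAs had low counts in these libraries, which had been depleted of ribosomal RNA, so that cell content and depletion cannot be told apart in their levels. mt-Rnr1, the RNA of the small ribosomal subunit at positions 70 to 1024, had 624, 659 and 189 counts in mutant mice 1, 2 and 3, against 686, 87 and 228 counts in control mice 1, 2 and 3. mt-Rnr2, the RNA of the large subunit at 1094 to 2675, had 1226, 1488 and 430 counts in mutant mice, against 1420 counts, 207 counts and 401 counts in control mice. Both were high in mutant mice 1 and 2 and control mouse 1 and low in the other 3 mice, so that the pattern differed from that of the messenger RNAs, where control mouse 2 was among the higher mice. In CPM the range was 12.3 to 49.4 for mt-Rnr1 in mutant mice and 7.51 to 57.1 in control mice. Per 1000 messenger counts there were 2.40, 2.37 and 1.03 ribosomal counts in mutant mice, against 2.67, 0.421 and 0.896 in control mice. The log2 fold changes were 0.46 for mt-Rnr1 (SE 0.91, adjusted p = 0.908 by edgeR) and 0.52 for mt-Rnr2 (SE 0.90, adjusted p = 0.895 by edgeR). Among the messenger RNAs the SE lay between 0.23 and 0.30.

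The 2 ribosomal RNAs kept a narrow ratio to each other. mt-Rnr2 had 1.96, 2.26 and 2.28 times the counts of mt-Rnr1 in mutant mice, against 2.07, 2.38 and 1.76 times in control mice. Cytosolic ribosomal RNA, a target of such depletion, varied alongside. Rn18s-rs5, a gene of the small cytosolic ribosomal RNA, had 1261, 1961 and 569.7 CPM in mutant mice, against 1874, 215 and 415 CPM in control mice. It was high and low in the same mice as mt-Rnr1 and mt-Rnr2, and its counts were 12.1 to 20.4 times those of mt-Rnr2 in every library, although the level of Rn18s-rs5 itself differed 9.10-fold between its highest and lowest library.

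Nuclear genes for mitochondrial proteins were read beside the members, from lists covering 218 genes that were all tested. None was called by edgeR, with or without the replicate block, or by DESeq2. At an unadjusted p of 0.05 in the edgeR fit 1 was higher and 2 were lower in mutant mice, where 5.06% and 3.49% of all genes were. The 77 nuclear subunits of complexes I to V had a median log2 fold change of 0.19, beside the median of -0.06 for the 13 mitochondrial messenger RNAs. Of the 77, 70 were above 0, while 9113 of all 18126 genes tested were. The median of the 77 was -0.04 without mutant mouse 2 and between 0.07 and 0.42 without any other single mouse. With the replicate block it was 0.06, 0.20 and 0.28 without replicates 1, 2 and 3. These 77 genes took 0.314%, 0.352% and 0.205% of counts in mutant mice, against 0.202%, 0.282% and 0.192% in control mice. In these unscaled shares control mouse 3 was the lowest of the 6, and control mouse 1 was the next lowest, just below mutant mouse 3. Control mouse 1 had the highest level of 7 mitochondrial messenger RNAs, but in TMM-scaled CPM, so these rankings cannot be compared directly. In unscaled shares, mitochondrial transcripts took 6.72%, 6.52% and 4.12% of counts in mutant mice, against 6.25%, 5.60% and 4.12% in control mice.

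The genes with the smallest p in each respiratory list were above 0 but did not pass. They were Ndufb4 and Ndufa2 of complex I, at 0.57 and 0.32 on the log2 scale, and Sdha and Sdhc of complex II, the succinate dehydrogenase, at 0.21 and 0.13. For complex III they were Uqcrfs1, the Rieske iron-sulfur subunit, at 0.40 and Uqcrh at 0.26. For complex IV they were Cox7a2 at 0.34 and Ndufa4 at 0.54, and for complex V Atp5mk and Atp5po, both at 0.37. Cox6a2 and Cox8b encode the complex IV subunits of muscle. Cox6a2 had 56.8, 68.3 and 7.59 CPM in mutant mice, against 17.5, 52.5 and 4.19 CPM in control mice, and Cox8b had 9.66, 11.4 and 2.27 CPM in mutant mice, against 3.83, 8.02 and 0.678 CPM in control mice. Both were highest in mutant mouse 2 and lowest in control mouse 3, as were the muscle markers in unscaled shares. Mutant mouse 1 lay above control mouse 2 for both genes but below it for the muscle markers. Neither gene was called (log2 fold change 0.85 and 0.92, adjusted p = 0.856 and 0.802 by edgeR).

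Genes that make and process mitochondrial RNA had medians close to 0. The 9 genes of mitochondrial transcription had a median of -0.10, with Mterf4 at -0.42 and Mterf1b at 0.65, both members of the mitochondrial termination factor family. The 8 genes of mitochondrial DNA maintenance had a median of -0.02, with the polymerase Polg at -0.14 and the helicase Twnk at 0.22. Among 19 genes of RNA processing and stability, with a median of 0.02, Fastkd5, which takes part in processing mitochondrial precursor RNA, had 13.7, 14.8 and 16.5 CPM in mutant mice, against 10.7, 9.40 and 10.9 CPM in control mice. Its groups did not overlap, as for 6.54% of all genes in that direction, and its log2 fold change of 0.54 (SE 0.18) had an adjusted p of 0.545 by edgeR. The next was Pnpt1, a mitochondrial exoribonuclease, at 0.24. The 78 mitochondrial ribosomal proteins had a median of -0.01, with 34 above 0, and their smallest p belonged to Mrps26 and Mrpl58, at -0.50 and -0.51. Mrps26 had 7.68, 8.52 and 9.47 CPM in mutant mice, against 11.4, 13.1 and 11.8 CPM in control mice, without overlap, as for 6.67% of all genes in that direction, and with an adjusted p of 0.563 by edgeR. The 17 mitochondrial aminoacyl-tRNA synthetases had a median of 0.04, and Mars2, which charges the methionine transfer RNA, had 0.21. Of 7 regulators of mitochondrial biogenesis, with a median of 0.05, the PGC-1 family coactivators Pprc1 and Ppargc1b had -0.27 and -0.38.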

How the data were processed

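Whole-femur RNA was depleted of ribosomal RNA and sequenced by paired-end reads, which the authors aligned with STAR to mm39 (GRCm39). The submitters' processing notes name Partek. Versions, annotation, counting settings and strand are not given in the sources used here. Deposited values are unscaled estimated counts, of which 70.7% were exactly whole as written, without tolerance but at 6 significant digits, and the lowest row sum over the 6 libraries was 10. Counts were rounded to whole numbers before the edgeR, DESeq2 and limma fits, while the permutation tests used shares and ratios of unrounded counts.

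GENCODE vM39 gave names and coordinates for 23572 of 23733 gene identifiers. Nuclear copies were annotated pseudogenes whose transcripts matched the mitochondrial chromosome by blastn (BLAST+ 2.17.0) with at least 95% identity over at least 50 bases. 0 columns of other samples were present.

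The genotypes were compared with the quasi-likelihood test of edgeR 4.0.16 (R 4.3.3, robust) with TMM scaling after filterByExpr (minimum 10 counts, total 15), with Benjamini-Hochberg adjustment over 18126 genes and a threshold of 0.05. Log2 fold changes are mutant over control. Single values were compared by exact permutation over mice (Python 3.11.15), for which 3 against 3 cannot go below 0.1. The fit was tested first on simulated data. Alternatives used DESeq2 1.42.0 and limma 3.58.1, other scalings and filters, blocking on the replicate number and omission of each library. No library pair was alike within counting noise.

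The named genes were all members and, of each nuclear-encoded list, the 2 with the smallest p, of which 1 is not reported here. Other genes given with values, Rn18s-rs5, Gm29216, Gm28661, Gm28437, Gm28438, Gm28439, Gm10222, Atp6-ps, Gm13339, Gm4076 and Ppargc1a, were chosen after their values were seen. The members and lists were chosen with earlier results of these data known.

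The labels number mice 1 to 3 in both groups, and controls are littermates by the methods, but the numbers are not tied to litters in the sources used here. Deviations from the group means correlated by 0.154, 0.212 and 0.465 within pairs 1, 2 and 3, each above the limit of 0.1, so the numbers were taken as pairing the mice, least firmly for pair 1, as mutant mouse 1 correlated by 0.202 with control mouse 2. These correlations come from the same counts that the block was applied to, so they are no independent evidence of pairing.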

Additional observations from a re-analysis of the deposited data

How the results depend on the processing

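None of the 15 members was called under any alternative run, and the lowest adjusted p of a member among them was 0.293 (edgeR, DESeq2 or limma). With the replicate block, mt-Nd4l had a log2 fold change of -0.24 (edgeR adjusted p = 0.314, 95% interval -0.48 to 0.01), and the block changed no call of a member. The sign of the small fold changes did depend on the setting, with 52 sign changes among 330 values, all of them uncalled. Library size alone gave log2 fold changes of 0.13 for mt-Nd1, 0.095 for mt-Nd2, 0.12 for mt-Nd3, 0.11 for mt-Nd4, 0.073 for mt-Nd5, 0.096 for mt-Cytb, 0.13 for mt-Co1, 0.16 for mt-Co2, 0.033 for mt-Atp8 and 0.14 for mt-Atp6. Scaling to the mitochondrial messenger sum gave 0.0028 for mt-Nd1, 0.0091 for mt-Nd3, 0.010 for mt-Co1, 0.047 for mt-Co2 and 0.027 for mt-Atp6, and limma-voom gave -0.0014 for mt-Co3. With the block and without replicate 1, mt-Co2 had 0.039 and mt-Atp6 0.012. Without replicate 2, mt-Co3 had -0.070, mt-Rnr1 -0.20 and mt-Rnr2 -0.062. Without replicate 3, mt-Nd1 had 0.020, mt-Co1 0.0074 and mt-Co2 0.0016. Leaving out each library in turn without the block, the ranges were mt-Nd1 -0.19 to 0.18, mt-Nd2 -0.25 to 0.13, mt-Nd3 -0.28 to 0.17, mt-Nd4 -0.21 to 0.13, mt-Nd5 -0.23 to 0.078, mt-Cytb -0.24 to 0.12, mt-Co1 -0.19 to 0.17, mt-Co2 -0.17 to 0.18, mt-Co3 -0.13 to 0.21, mt-Atp8 -0.34 to 0.046, mt-Atp6 -0.21 to 0.18, mt-Nd4l -0.47 to -0.08, mt-Nd6 -0.38 to -0.01, mt-Rnr1 0.040 to 1.72 and mt-Rnr2 0.12 to 1.83. The difference in mitochondrial share, 0.464 points with all libraries, was -0.27 points without the 10 most abundant genes in the denominator and ranged from -0.14 to 1.30 points on leaving out libraries, with values below 0 without mutant mouse 1 and without control mouse 3. Of the 13 shares of the messenger pool, 1 to 3 did not overlap between groups when a library was left out. Smaller groups separate more readily by chance, and the share over all genes was not computed for these omissions. These counts are thus not read as differences. Over all genes edgeR called 0, against 118 by DESeq2, 157 with scaling to the mitochondrial messenger sum and 8 without mutant mouse 2, where other omissions gave 0. The block called 602, also with nuclear copies added, and 297, 700 and 157 without replicates 1, 2 and 3. Without replicate 2 it also called 2 nuclear-encoded mitochondrial genes, Ppargc1a (log2 fold change 1.55, edgeR adjusted p = 0.0125) and Cox6a2 (1.34, edgeR adjusted p = 0.0024). The cause of these shifts was not tested. The transfer to messenger ratio was not run, as no mitochondrial transfer RNA had a row in the count table. Adding nuclear copies was chosen after seeing the data.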
